A study of Mus musculus with 199 samples.

Results

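The genes described here are 38 genes that mark endothelial cells and hepatic stellate cells, followed across small-cell lung cancer cells from cultured spheroids and from colonies in the liver of mice. They were chosen by symbol from 31581 genes in the deposited table, and all 38 were found there. They comprised 10 general endothelial genes, 5 receptors for vascular growth factors, 9 genes of the liver sinusoidal endothelium, 8 genes of stellate cells and pericytes, and 6 genes for matrix and secreted proteins. The study captured 10 cells at a time from frozen sections by laser microdissection, amplified their poly(A) RNA by PCR and sequenced it, in 199 libraries with the bulk samples included. KP1 is an explanted mouse small-cell lung cancer line with the genotype Rb1-/-Trp53-/-, and RPC denotes explanted cells of a pre-cancerous stage with the genotype Rb1-/-Trp53-/-p130-/+Crebbp-/-.

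Spheroids gave 28 KP1 and 24 RPC 10-cell libraries. Liver colonies of KP1 cells gave 33 10-cell libraries from nude mice, which lack a thymus and are immunocompromised, and 31 from immunocompetent F1 mice. All liver groups and the KP1 spheroids therefore shared the Rb1 and Trp53 deletions. Pool-and-split controls, in which captured material was pooled and then split, gave 20 libraries from KP1 spheroids, 35 from nude liver and 24 from F1 liver. Bulk RNA of spheroids came as 1 library each of KP1, KP2 (also Ptch1+/lacz), KP3 (also Axin2+/lacz) and KP5 (also BAT-GAL). The age of the mice, the number of animals behind each group and the parents of the F1 cross were not given in the sources used here. The 10-cell libraries of a group may share an animal or a colony and the portions of a pool share their RNA, so p-values measure the spread between libraries.

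Endothelial cells line blood vessels. Those of the liver sinusoids are perforated, lack a continuous basement membrane and take up waste from the blood through scavenger receptors. Hepatic stellate cells lie beside the sinusoids, store vitamin A when quiescent and turn into contractile, matrix-producing cells when activated by injury or a growing tumour. A tumour colony in liver grows among both cell types.

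Promoters of Acta2 and Sparc are shown because Fisher's exact test called these members more often in 10-cell libraries of both livers than in those of KP1 spheroids and did so under every alternative tried, which was not so for Rgs5, the other member called in both. Acta2 encodes smooth muscle actin, the contractile protein by which activated stellate cells are recognised, and Sparc encodes a secreted protein that binds collagen. Each run covers 250 bases before to 50 bases after the annotated start in RefSeq, build GRCm38.p6, read 5′ to 3′ on the gene's strand, for Acta2 at chr19:34255324-34255623 and for Sparc at chr11:55420031-55420330, both on the minus strand. Capitals mark the letters TATAA, searched on both strands.
Acta2: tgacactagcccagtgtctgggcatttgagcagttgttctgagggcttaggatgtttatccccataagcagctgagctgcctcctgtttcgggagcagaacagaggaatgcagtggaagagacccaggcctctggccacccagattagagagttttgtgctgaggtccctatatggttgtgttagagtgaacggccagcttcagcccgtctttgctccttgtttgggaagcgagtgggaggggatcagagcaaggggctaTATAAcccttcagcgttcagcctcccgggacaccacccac
Sparc: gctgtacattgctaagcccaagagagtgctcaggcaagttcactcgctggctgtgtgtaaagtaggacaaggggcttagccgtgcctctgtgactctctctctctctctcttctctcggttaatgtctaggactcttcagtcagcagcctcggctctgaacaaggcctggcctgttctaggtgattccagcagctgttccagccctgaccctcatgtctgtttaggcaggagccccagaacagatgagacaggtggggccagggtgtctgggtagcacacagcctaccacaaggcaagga
The window of Acta2 held TATAA from base 261, after the start annotated in RefSeq and before the start of the gene in GENCODE at 34255336, and the window of Sparc did not hold it. In GENCODE the Sparc gene starts at 55423183, upstream of its window, which lies inside that gene. Of 32851 promoters in the table, 24.9% held TATAA, as did 9 of the 23 members with an entry. These letters were chosen with the Acta2 sequence in view.

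Values are in CPM, the usual scaling of a gene's counts to the total of its library, here over all mouse genes and without the spike-in RNA. The 10-cell and pool libraries held 718208 to 7557773 counts of mouse genes, so that 3 counts correspond to between 0.397 and 4.18 CPM. A library was said to contain a gene when it held at least 1 count. Spike-in RNA took a median of 0.00465% of KP1 spheroid, 0.969% of nude liver and 2.16% of F1 liver 10-cell libraries, and over 10% in 17 of the 24 F1 liver pool libraries. In F1 liver 10-cell samples 29 to 33, the ribosomal pseudogene Rpl19-ps11 was at 47.1 to 85.5 CPM, against 177 to 1835 CPM in the other 26 libraries. A list of 12 neuroendocrine markers summed to medians of 1571 CPM in RPC spheroid, 2609 CPM in KP1 spheroid, 2313 CPM in nude liver and 2537 CPM in F1 liver 10-cell libraries. Against KP1 spheroids, edgeR called 5 of 10 tested lower and 1 higher in nude liver, and 4 lower and 2 higher in F1 liver. Of all genes tested, 16.3% were lower and 17.7% higher in nude liver, and 4.91% lower and 7.73% higher in F1 liver.

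Nude liver held endothelial and stellate genes that 10-cell libraries of KP1 spheroids lacked or nearly lacked, and F1 liver held stellate and matrix genes of that kind. In nude liver, 13 of 27 members tested were found in a larger share of 10-cell libraries than in KP1 spheroids and none in a smaller share, where 7.89% of all genes tested were found more often and 8.37% less often. In F1 liver, 3 of 24 members tested, Sparc, Rgs5 and Acta2, were found more often and none less often, where 1.39% of all genes were found more often, 4.55% less often and 5.93% either way. These 3 are stellate or matrix members, and no endothelial member was called there. With 5 counts required in a library, 7 members were called in nude liver, all more often, where 1005 of 12701 genes were found more often and 1511 less often. With libraries thinned to 1 common total, 5 were called in F1 liver, 4 more often and Ehd3 less often, where 157 of 13002 genes were found more often and 554 less often. This test was Fisher's exact test, two-sided, on the number of libraries with counts, adjusted by the Benjamini-Hochberg method over all genes. A gene with counts in fewer than 5 KP1 spheroid libraries entered this test only through liver libraries, as Acta2, Rgs5 and Sparc did. These counts, and like counts in the pools, are thus no measure of how many members differ. In such samples, fewer cells of a type and less RNA per cell cannot be told apart.

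**Figure D1:**
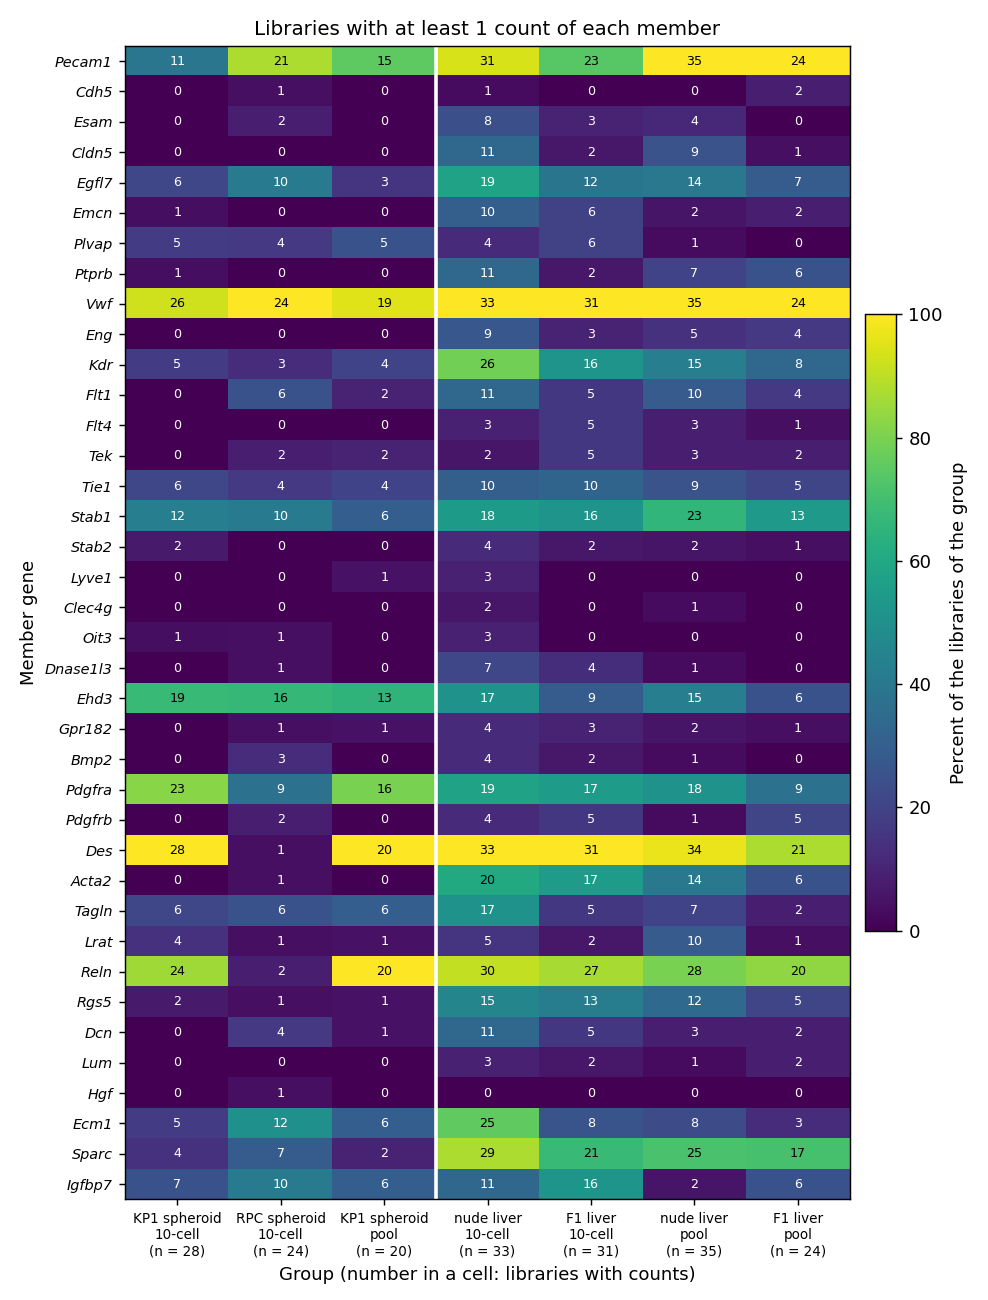
Number of libraries with at least 1 count of each member (rows) in each group (columns); colour gives the percent of the libraries of the group, and the white line separates spheroids from livers. Sparc, Acta2, Kdr and Pecam1 stand out in the nude liver 10-cell column with 29, 20, 26 and 31 of 33 libraries, while Des, Reln and Vwf had counts in most libraries of KP1 spheroids and livers alike.

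Among the general endothelial genes, Pecam1 and Vwf reached the mean-level test in nude liver and both were higher there. Pecam1 encodes the adhesion molecule CD31 of endothelial junctions and lies at chr11:106654217-106750628 on the minus strand (GRCm38). It ranged from 0 through a median of 0 to 2.14 CPM in KP1 spheroids and from 0 through 5.89 to 49.2 CPM in nude liver, with counts in 11 of 28 and 31 of 33 libraries. Its mean was 0.281 ± 0.551 (SD, n = 28) against 11.3 ± 12.9 CPM (SD, n = 33), a log2 fold change of 5.17 (SE 0.68, edgeR adjusted p = 4.5e-09). Most nude liver libraries lay above every KP1 spheroid library, and the ranges overlapped between 0 and 2.14 CPM. In F1 liver, Pecam1 stayed between 0 and 4.57 CPM with a median of 0.534, and its 23 of 31 libraries with counts, against 11 of 28 in spheroids, did not pass the test (Fisher's exact test, adjusted p = 0.0959). It passed with libraries thinned to 1 common total (adjusted p = 0.0404) and when expected counts under 1 were counted too (25 of 31 libraries, adjusted p = 0.0348).

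Vwf encodes von Willebrand factor, the clotting protein stored in endothelial cells. It was counted in 26 of 28 KP1 spheroid libraries, so its presence alone did not separate the groups. The gene lies at chr6:125546774-125686679 on the plus strand (GRCm38). Its level ran from 0 through a median of 4.04 to 55.3 CPM in KP1 spheroids, from 6.66 through 29.3 to 224 CPM in nude liver and from 3.51 through 10.3 to 70.7 CPM in F1 liver. The groups overlapped broadly, with the highest median in nude liver and the lowest in KP1 spheroids. The log2 fold change was 2.59 in nude liver (SE 0.481, edgeR adjusted p = 1.28e-05) and 1.66 in F1 liver (SE 0.493, edgeR adjusted p = 0.017). The F1 call was lost against KP1 spheroids with little spike-in alone (adjusted p = 0.116), against those with spike-in alone (0.0725) and with F1 samples 29 to 33 alone (0.414).

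A value with decimals holds at least 1 read that was divided between transcripts, and does not show what share of the reads was. Every value of Pecam1 above 0 carried decimals, as did 97.5% of those of Vwf, whereas 18 of the 38 members had none. Of 6242 stretches of 30 bases in Pecam1 transcripts, 157 also occurred in transcripts of 2520 other genes, and of 16052 in Vwf, 216 occurred in 356 other genes. Stab1 at 88.7%, Tie1 at 83.6%, Igfbp7 at 66.1% and Stab2 at 60% were the other members with decimals in most of their values. Among 16463 protein-coding genes, 24.9% had decimals in most of their values. The part of such reads in the differences of Pecam1 and Vwf was not tested.

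Other endothelial genes were found in fewer libraries. Cldn5, Eng, Esam and Emcn had whole counts throughout, and 22.6% of the values of Ptprb carried decimals. Cldn5, a tight-junction claudin, had counts in none of 28 KP1 spheroid libraries and in 11 of 33 nude liver libraries, with up to 16.3 CPM (adjusted p = 0.00745). Eng, the endothelial co-receptor endoglin, had counts in 0 and 9 libraries and reached 53.5 CPM (adjusted p = 0.0231). Ptprb, the endothelial phosphatase that acts on Tie2, had counts in 1 and 11 libraries and reached 12.7 CPM (adjusted p = 0.0292). For Esam, an adhesion molecule of the same junctions, the numbers were 0 and 8 with up to 14.4 CPM (adjusted p = 0.0397). For Emcn, the endothelial sialomucin endomucin, they were 1 and 10 with up to 66.9 CPM (adjusted p = 0.048). All 5 calls were lost when a library had to hold 5 counts, at adjusted p between 0.0581 and 0.272, those of Eng and Esam also with libraries thinned to 1 common total (both 0.185), and those of Esam and Emcn also when every gene with a count was tested (0.0519 and 0.0627). These 5 genes were each found in 2 to 6 of the 31 F1 liver libraries, where only Emcn was in enough libraries to be tested and did not pass (adjusted p = 0.401).

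In F1 liver, Cldn5 and Eng were each high in 1 library alone. Cldn5 reached 184 CPM in sample 31 and was otherwise at most 0.32 CPM. Eng reached 129 CPM in 1 library, which was 97.8% of the CPM of Eng summed over the group. Egfl7, which encodes a secreted endothelial protein, was found in 19 of 33 nude liver and 6 of 28 KP1 spheroid libraries (adjusted p = 0.0512). Plvap, which forms the diaphragms of fenestrated vessels, was found in 4 nude liver, 6 F1 liver and 5 KP1 spheroid 10-cell libraries. Cdh5, VE-cadherin, the defining adhesion molecule of endothelial cells, was found in 1 of 33 nude liver libraries, at 1.19 CPM, and in none of 31 F1 liver libraries.

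Kdr and Flt1, the receptors that bind VEGF on endothelial cells, were both found more often in nude liver. Kdr ranged from 0 through a median of 0 to 3.39 CPM in KP1 spheroids and from 0 through 3.56 to 35.3 CPM in nude liver. Its libraries with counts numbered 5 of 28 and 26 of 33, a difference of 60.9 percentage points (adjusted p = 0.000151). In F1 liver it was found in 16 of 31 libraries, up to 20.8 CPM, which did not pass (Fisher's exact test, adjusted p = 0.12). Bulk RNA of KP1 spheroids held 3.71 CPM of Kdr, and the other bulk lines held 0.0659 to 1.74 CPM. Flt1, the receptor that also acts as a decoy, had no count in any KP1 spheroid 10-cell library and was found in 11 of 33 nude liver libraries (adjusted p = 0.00745). Samples 34 and 11 stood far above the rest, with 429 and 263 CPM, and 6 of the 33 libraries were above 10 CPM. With 5 counts required, Flt1 lost the call, at an adjusted p of 0.0581.

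The remaining receptors were sparse. Flt4, the receptor of lymphatic and sinusoidal endothelium, was found in 3 nude liver and 5 F1 liver 10-cell libraries, in 1 of which, sample 14, it reached 229 CPM beside 254 CPM of Flt1. Tek, which encodes Tie2, was found in 2 nude and 5 F1 liver libraries, up to 25.8 CPM. Tie1 was found in 6 KP1 spheroid, 10 nude liver and 10 F1 liver libraries, never above 4.05 CPM. Against KP1 spheroids, Fisher's exact test called neither Tie1 in nude and F1 liver (adjusted p = 0.837 and 0.836) nor Flt4 and Tek in F1 liver (both 0.266), and in nude liver Flt4 and Tek were in too few libraries to be tested.

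Sinusoidal members were sparse, and few could be tested in the 10-cell comparisons of the livers with KP1 spheroids. Of the 9, edgeR tested none, and Fisher's exact test could be applied to 4 in nude liver and 2 in F1 liver and called none of them. Clec4g, Lyve1, Stab2 and Oit3, which encode surface receptors and a secreted protein typical of sinusoidal endothelium, were found in 2, 3, 4 and 3 of 33 nude liver libraries and in 0, 0, 2 and 0 of 31 F1 liver libraries. Their highest values were 0.793 CPM for Clec4g, 9.64 CPM for Lyve1, 19 CPM for Stab2 and 5.93 CPM for Oit3. Gpr182 and Bmp2, a receptor and a secreted regulator of iron balance, each had counts in 4 nude liver libraries, up to 3.05 and 6.92 CPM. Dnase1l3, which encodes a secreted DNase, was found in 7 nude liver libraries at no more than 1.39 CPM (adjusted p = 0.0672) and in 4 F1 liver libraries, where sample 11 held 370 CPM. Stab1, a scavenger receptor shared with macrophages, was found in 12 of 28 KP1 spheroid, 18 of 33 nude liver and 16 of 31 F1 liver libraries.

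Ehd3, an endocytic protein enriched in sinusoidal endothelium, did not pass the test in either liver. It was found in 19 of 28 KP1 spheroid libraries at up to 29.2 CPM, in 17 of 33 nude liver and in 9 of 31 F1 liver libraries (adjusted p = 0.0613 for F1 liver). Spheroids hold no liver tissue, and bulk RNA of KP1 spheroids held 30.5 CPM of Ehd3. The lower frequency in F1 liver passed the test with libraries thinned to 1 common total (adjusted p = 0.0302) and with 5 counts required (0.0295).

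Acta2 was absent from KP1 spheroids and present in most 10-cell libraries of both livers. It lies at chr19:34241090-34255336 on the minus strand (GRCm38), and 41.4% of its values above 0 carried decimals. It had no count in any of the 28 KP1 spheroid 10-cell and 20 pool libraries, nor in any of the 4 bulk libraries. In nude liver it was found in 20 of 33 libraries, from 0 through a median of 1.99 to 73.4 CPM (Fisher's exact test, adjusted p = 1.78e-05), and in F1 liver in 17 of 31, from 0 through 1.5 to 225 CPM (adjusted p = 0.000239). Against a floor of 3 counts over all KP1 spheroid 10-cell libraries, the mean was at least 473-fold higher in nude liver and at least 980-fold higher in F1 liver. The hepatocyte gene Alb had counts in all 20 nude liver libraries with Acta2 and in 12 of the other 13, and in F1 liver in 16 of 17 with Acta2 and in 8 of the other 14.

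Rgs5, a pericyte regulator of G-protein signalling, was found in 15 of 33 nude liver and 2 of 28 KP1 spheroid libraries (adjusted p = 0.0136). It reached 111 CPM in nude liver and 14.1 CPM in spheroids. In F1 liver it was found in 13 of 31 libraries (adjusted p = 0.0489). The nude liver and F1 liver calls were both lost when libraries were thinned to 1 common total (adjusted p = 0.112 and 0.17) and with 5 counts required (0.102 and 0.43). The F1 call was also lost when every gene with a count was tested (0.0632) and when expected counts under 1 were counted too (0.0503). Tagln, the smooth muscle protein SM22, was found in 17 of 33 nude liver, 5 of 31 F1 liver and 6 of 28 KP1 spheroid libraries (adjusted p = 0.0888 in nude liver). Its exons share bases with Pcsk7 and a neighbouring transcript, both on the opposite strand, at most 1241 bases with either. The libraries do not keep strand, so reads from shared bases cannot be assigned by strand. Of the 30-base stretches of Tagln, 62.4% occurred in transcripts of other genes, and 9.43% of its values above 0 carried decimals. The part of such reads in its counts was not tested. Pdgfrb, the pericyte and stellate receptor for PDGF, was found in 4 and 5 of the liver 10-cell libraries and in no KP1 spheroid 10-cell or pool library. Lrat, the enzyme that makes the retinyl esters stored by quiescent stellate cells, was found in 4 KP1 spheroid, 5 nude liver and 2 F1 liver libraries, up to 125 CPM in 1 F1 library.

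**Figure D2:**
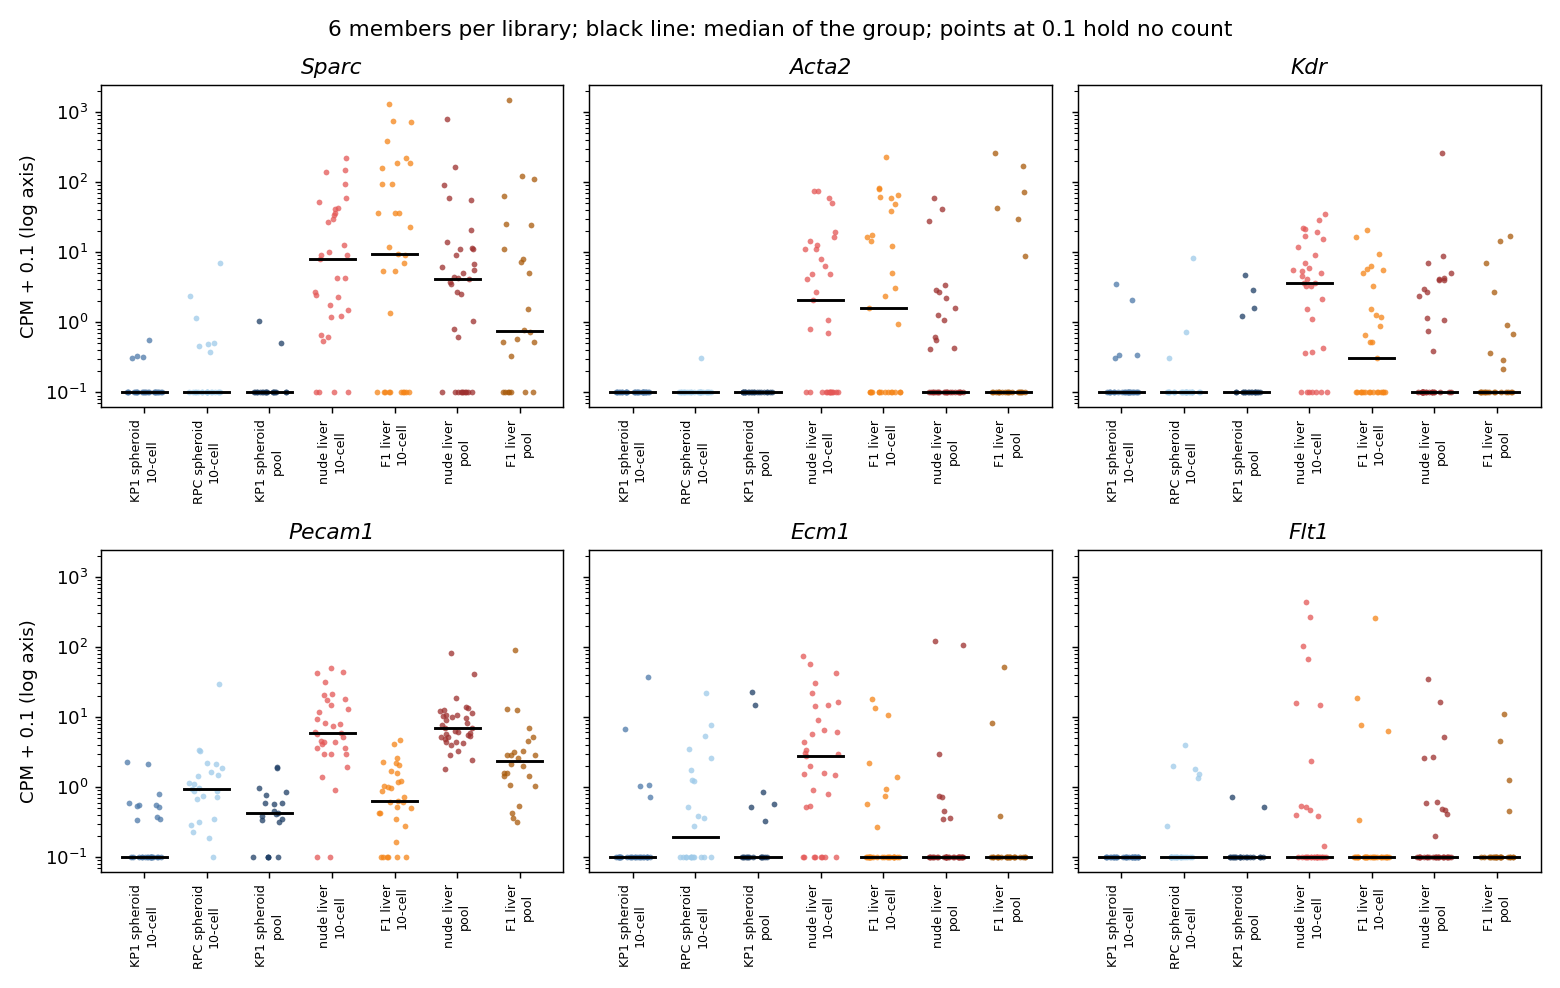
CPM + 0.1 (log axis) of 6 members in every library of 7 groups; each point is 1 library, the black line is the median of the group, and points at 0.1 hold no count. Acta2 and Flt1 are at 0 in every KP1 spheroid 10-cell library, and Sparc reaches 217 CPM in nude liver and 1302 CPM in F1 liver 10-cell libraries.

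Des, Reln and Pdgfra are used as stellate markers, yet all of them were counted in KP1 cells away from liver. Des encodes the intermediate filament desmin. It was present in all 28 KP1 spheroid libraries, from 0.471 through a median of 55.3 to 188 CPM, and in all 33 nude liver libraries, from 16.4 through 171 to 472 CPM. The means of 60 ± 52.5 and 192 ± 105 CPM (SD, n = 28 and 33) differed by a log2 fold change of 1.63 (SE 0.348, edgeR adjusted p = 0.000125). The distributions overlapped, and against the 9 spheroid libraries with spike-in alone the adjusted p was 0.0569. F1 liver ranged from 0.446 through 72.9 to 801 CPM and did not pass (log2 fold change 1.21, edgeR adjusted p = 0.0725). Bulk KP1 RNA held 149 CPM of Des, while the other bulk lines held 0.942 to 2.27 CPM.

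Reln, the secreted glycoprotein reelin, had a median of 2.44 CPM in KP1 spheroids, 4.83 CPM in nude liver and 15.6 CPM in F1 liver, with highest values of 203, 434 and 596 CPM. The differences did not pass the mean-level test, at log2 fold changes of 0.07 (SE 0.717, edgeR adjusted p = 0.951) and 1.46 (SE 0.771, edgeR adjusted p = 0.209). Pdgfra, a receptor for PDGF, was found in 23 of 28 KP1 spheroid, 19 of 33 nude liver and 17 of 31 F1 liver libraries, with no call in either liver. These 3 genes, with Vwf and Ehd3, were the members with counts in most of the KP1 spheroid 10-cell libraries.

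**Figure D3:**
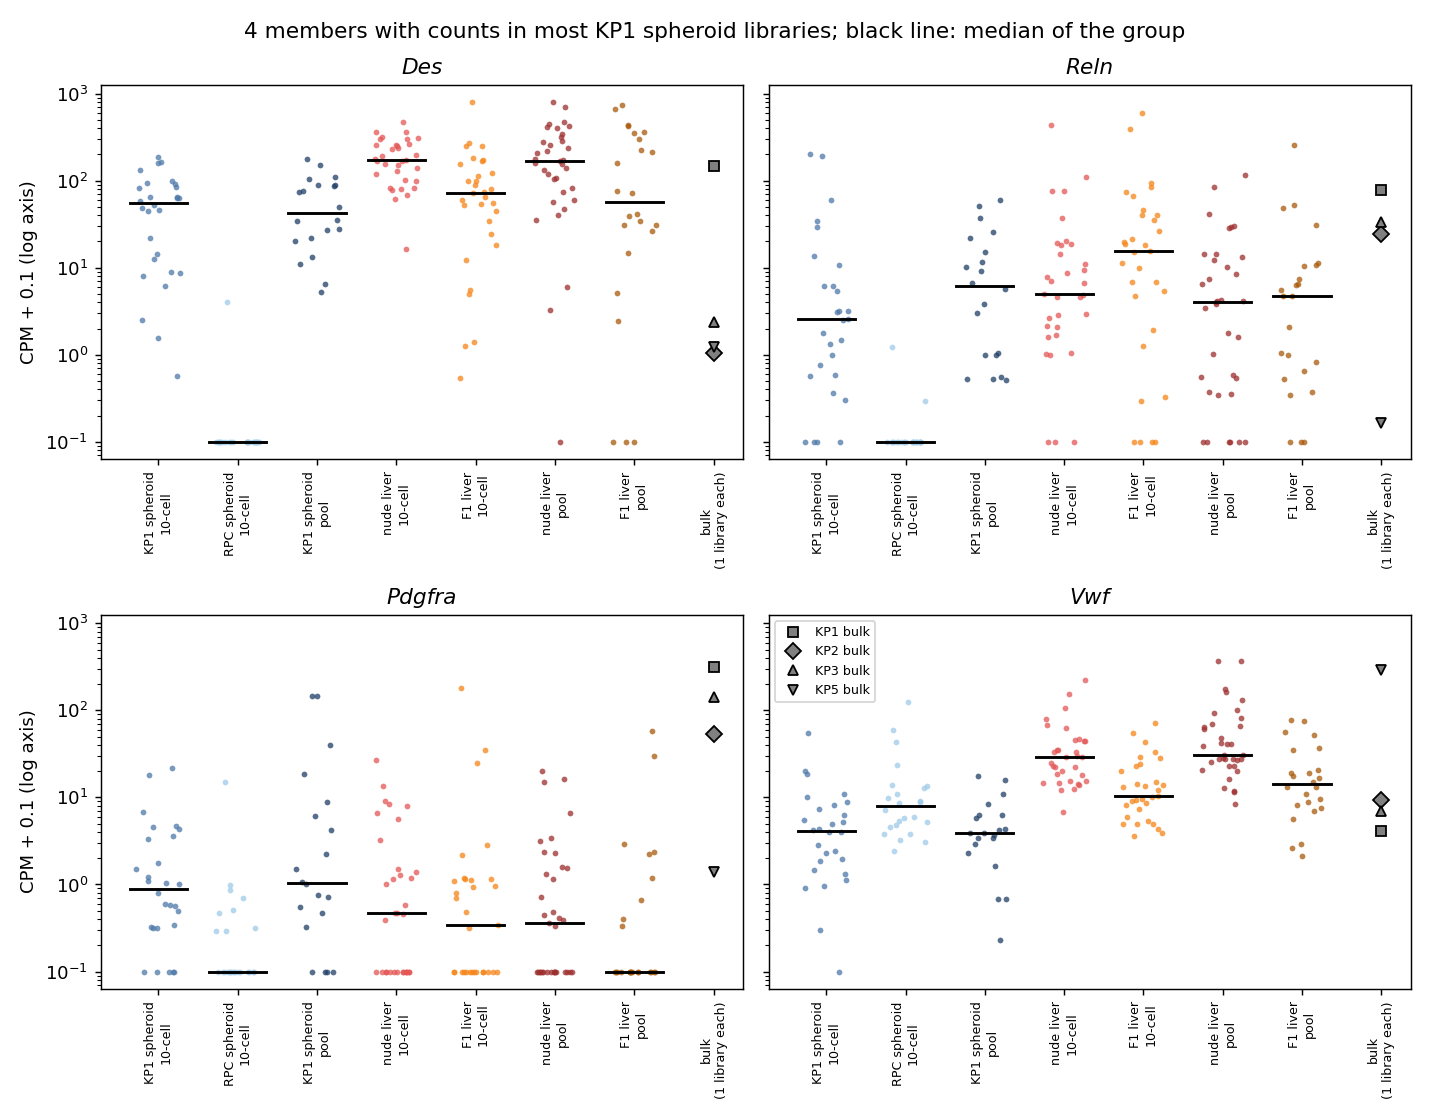
CPM + 0.1 (log axis) of 4 members that most KP1 spheroid libraries contained, for 7 groups and the 4 bulk libraries; points are libraries and black lines group medians. Des is near 0 in RPC spheroids, at 149 CPM in bulk KP1, and has medians of 55.3 CPM in KP1 spheroids and 171 CPM in nude liver; Vwf is at 293 CPM in bulk KP5.

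Among the matrix and secreted members, Sparc was found in the most liver libraries, and 35.8% of its values above 0 carried decimals. The gene lies at chr11:55394500-55423183 on the minus strand (GRCm38). It was at most 0.465 CPM in KP1 spheroids, with counts in 4 of 28 libraries. Nude liver held it in 29 of 33 libraries, from 0 through a median of 7.99 to 217 CPM (adjusted p = 1.15e-06), and F1 liver in 21 of 31, from 0 through 9.25 to 1302 CPM (adjusted p = 0.00448). In both livers most libraries exceeded every KP1 spheroid 10-cell library, and the ranges overlapped between 0 and 0.465 CPM. Sparc and Acta2 occurred together in 19 of 33 nude liver and 15 of 31 F1 liver libraries, and Acta2 without Sparc in 1 and 2.

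Ecm1, an extracellular matrix protein that hepatocytes also make, was found in 5 of 28 KP1 spheroid and 25 of 33 nude liver libraries, with medians of 0 and 2.64 CPM and highest values of 36.9 and 73.4 CPM (adjusted p = 0.000367). F1 liver held it in 8 of 31 libraries, up to 18 CPM. Dcn, the small proteoglycan decorin of fibroblasts, was at 0 in all KP1 spheroid 10-cell libraries and found in 11 of 33 nude liver libraries, up to 27.9 CPM (adjusted p = 0.00745). In F1 liver it had counts in 5 libraries, up to 50.9 CPM. Bulk RNA of KP1 spheroids held 14 CPM of Dcn, and the other bulk lines held 0.0659 to 9.51 CPM. Lum, the related proteoglycan lumican, had counts in 3 nude and 2 F1 liver libraries. Hgf, the hepatocyte growth factor of stellate cells, had no count in any KP1 spheroid or liver 10-cell library. Igfbp7, a secreted protein of vessels and activated stroma, was found in 7 KP1 spheroid, 11 nude liver and 16 F1 liver libraries without passing the test, and reached 478 CPM in F1 liver and 21.4 CPM in nude liver. With 5 counts required, 14 F1 liver and 2 KP1 spheroid libraries held it, which passed (adjusted p = 0.0239).

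The mean-level test could be applied to few members. With edgeR's filter on low counts, 4 of the 38 members were tested in nude liver and 3 in F1 liver, and 3 and 1 of them were higher than in KP1 spheroids, where 17.7% and 7.73% of all genes tested were higher and 16.3% and 4.91% lower. A gene that is near 0 in spheroids passes that filter only through the liver libraries, so these counts are no measure of how many members differ. Without the filter the same test called 29 and 22 members, but it also called 5420 of 20050 genes higher and 3011 lower in nude liver and 3201 of 19000 higher and 1871 lower in F1 liver. DESeq2 called 17 and 7 members, with 3017 of 14246 genes higher and 2107 lower in nude liver and 1550 of 12805 higher and 975 lower in F1 liver.

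The number of members per library gave a further description. Of the 38 members, 17 had no count in any KP1 spheroid 10-cell library: Cdh5, Esam, Cldn5, Eng, Flt1, Flt4, Tek, Lyve1, Clec4g, Dnase1l3, Gpr182, Bmp2, Pdgfrb, Acta2, Dcn, Lum and Hgf. They were picked by their absence there, so their presence elsewhere is a description. At least 1 of them was found in 27 of 33 nude liver and 23 of 31 F1 liver 10-cell libraries, and at least 5 in 12 and 4. In the KP1 spheroid pool, which the choice did not use, 6 of 20 libraries held at least 1 and none held more than 2. Bulk spheroid libraries, each with 17266200 counts of mouse genes or more, held 10 of the 17 in KP1, 12 in KP2, 13 in KP3 and 6 in KP5. RPC spheroids held at least 1 in 17 of 24 libraries, with at most 3 in a library and a summed level of no more than 8.28 CPM, against up to 444 CPM in nude liver and 616 CPM in F1 liver. When each library was thinned to 718149 counts, a median of 11 members was found per nude liver, 8 per F1 liver, 3 per RPC and 4.5 per KP1 spheroid 10-cell library.

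**Figure D4:**
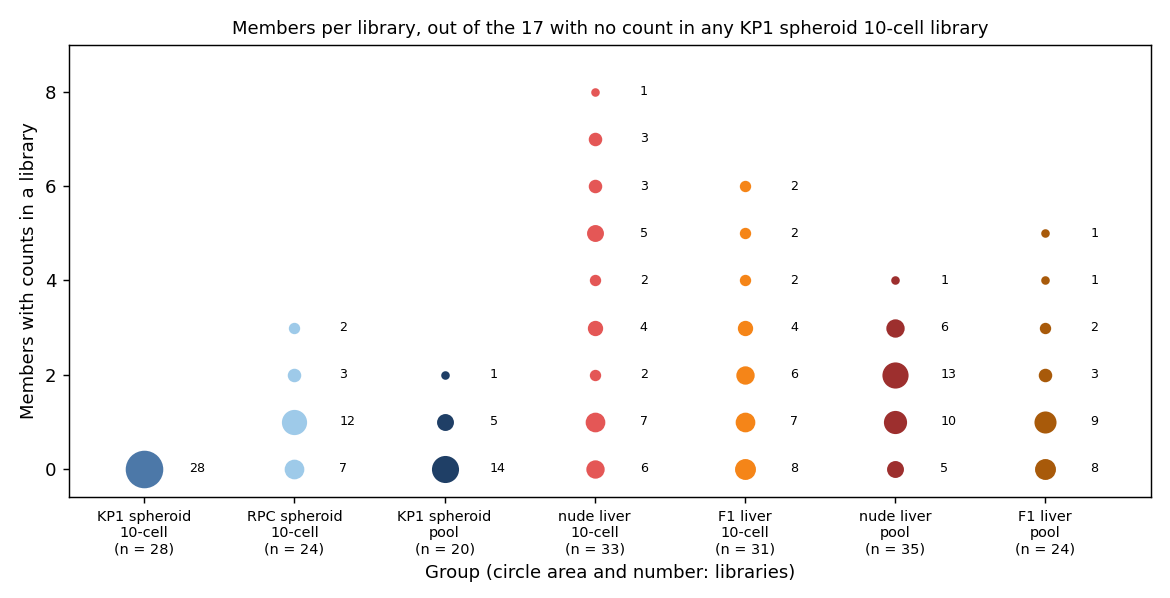
Members found per library (vertical axis) among the 17 that no KP1 spheroid 10-cell library contained, by group; circle area and the number beside it give the number of libraries. Nude liver 10-cell libraries spread from 0 to 8 members, F1 liver from 0 to 6, and nude liver pool libraries from 0 to 4.

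The libraries richest in these genes were led by different members. In nude liver, Flt1 led samples 34 and 11 and Acta2 led sample 2, which held 73.3 CPM of it with 42.4 CPM of Sparc, 33.6 CPM of Tagln and 27.9 CPM of Dcn. In F1 liver, sample 14 combined Flt1, Flt4, 219 CPM of Sparc, 157 CPM of Igfbp7, 94.6 CPM of Emcn and 82 CPM of Acta2, so endothelial and stellate members shared 1 library. F1 sample 33 held 737 CPM of Sparc and 225 CPM of Acta2. Among endothelial members it held 25.8 CPM of Tek, 7.67 CPM of Egfl7 and 4.18 CPM of Plvap, with no count of Pecam1.

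Few members were called between the 2 hosts, at a share near that of all genes for presence. Between F1 and nude liver 10-cell libraries, edgeR called 2 of 7 members tested, Sparc higher and Pecam1 lower in F1 liver, where 11.2% of all genes tested were higher and 7.98% lower. Fisher's exact test called 1 of 33, Ecm1, found in 8 of 31 F1 and 25 of 33 nude liver libraries (adjusted p = 0.00932), where 0.535% of all genes were found more often, 3.1% less often and 3.64% either way. That call was lost with 5 counts required (adjusted p = 0.0737). Pecam1 fell by 3.14 on the log2 scale (SE 0.545, edgeR adjusted p = 1.17e-05), and no F1 library reached the nude liver median of 5.89 CPM. Vwf, Des, Acta2, Reln and Kdr were tested and did not pass, with adjusted p between 0.11 and 0.483.

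The Sparc difference was not called without 5 F1 libraries. Its mean was 138 ± 288 CPM in F1 liver (SD, n = 31) and 30 ± 50.7 CPM in nude liver (SD, n = 33), a log2 fold change of 2.46 (SE 0.787, edgeR adjusted p = 0.0192), although the medians were 9.25 and 7.99 CPM. F1 samples 29 to 33, those with low Rpl19-ps11, held 190, 1302, 384, 726 and 737 CPM of Sparc. In the other 26 F1 libraries the median was 6.16 CPM and the highest value 219 CPM, and against nude liver they gave a log2 fold change of 0.61 (edgeR adjusted p = 0.634). Leaving out sample 30 alone gave 1.86 (edgeR adjusted p = 0.0796). The labels name no batch for these samples, and the part of what sets them apart in the Sparc level was not tested. Pecam1 had means of 0.995 CPM in the 26 libraries and 0.84 CPM in the 5, and it kept its call in the 26. In the 5, its log2 fold change against nude liver was -3.67 (edgeR adjusted p = 0.125).

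**Figure D5:**
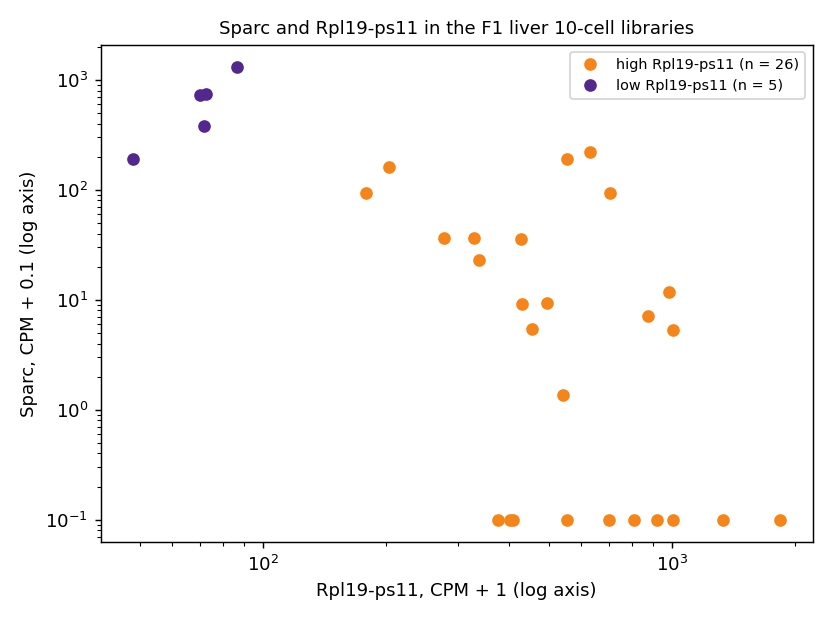
Sparc (CPM + 0.1, log axis) against Rpl19-ps11 (CPM + 1, log axis) in the 31 F1 liver 10-cell libraries. The 5 libraries with Rpl19-ps11 at 47.1 to 85.5 CPM hold 190 to 1302 CPM of Sparc, and 10 of the other 26 hold no count of it.

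RPC spheroids had less Des and fewer libraries with Reln and Pdgfra than KP1 spheroids, and more libraries with Pecam1. Des was found in 1 of 24 RPC and 28 of 28 KP1 libraries (adjusted p = 2.51e-11) and fell by 8.33 on the log2 scale (SE 0.82, edgeR adjusted p = 5.17e-13). Reln was found in 2 and 24 libraries (adjusted p = 1.81e-06), and Pdgfra in 9 and 23 (adjusted p = 0.0187), a call lost with libraries thinned to 1 common total (0.0788) and with 5 counts required (0.0681). Pecam1 was found in more RPC libraries, 21 of 24 against 11 of 28 (adjusted p = 0.00813), at a median of 0.85 CPM. Vwf was at a median of 7.86 CPM with a log2 fold change of 1.48 (SE 0.555, edgeR adjusted p = 0.0455), and without RPC sample 19, which held 124 CPM, it was 0.71 (edgeR adjusted p = 0.359). The Vwf call was also lost with TMMwsp scaling (adjusted p = 0.0554), with DESeq2 (0.149) and against KP1 spheroids with little spike-in (0.192). Fisher's exact test called 4 of 17 members tested, 1 more often and 3 less often, against 9.47% and 2.31% of all genes. By edgeR, 10.3% of all genes tested were higher and 11.6% lower. It tested only Vwf and Des, and Des, with counts in 1 RPC library, passed the filter through KP1 spheroids alone, so a count of members called is no measure here. RPC and KP1 differ in genotype and in stage, which cannot be told apart.

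In the nude liver pool, 4 of 23 members tested were found more often than in the KP1 spheroid pool, namely Sparc in 25 of 35 against 2 of 20 libraries (adjusted p = 0.000244), Acta2 in 14 against 0 (adjusted p = 0.00516, and 0.0829 with 5 counts required), Pecam1 in 35 against 15 (adjusted p = 0.0191) and Stab1 in 23 against 6 (adjusted p = 0.0463, and 0.0628 when every gene with a count was tested). None was found less often, where 4.92% of all genes were found more often and 24.6% less often. By edgeR, 4 of 5 members tested were higher and none lower, where 16.5% and 9.13% of all genes were. Sparc and Pecam1, near 0 in the KP1 pool, passed the filter only through the liver pool, so this count too is no measure of how many members differ. Sparc had a log2 fold change of 8.63 (SE 1.32, edgeR adjusted p = 3.77e-07), Pecam1 of 4.54, Vwf of 3.78 and Des of 2.18. Nude pool libraries of Pecam1 ran from 1.7 to 81.5 CPM and KP1 pool libraries from 0 to 1.86 CPM, so they overlapped only at the edge.

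In the F1 liver pool, Fisher's exact test called 5 of 20 members tested, 2 more often and 3 less often. Sparc was found in 17 of 24 against 2 of 20 libraries (adjusted p = 0.00117) and Pecam1 in 24 against 15 (adjusted p = 0.0491). Found less often were Pdgfra, in 9 against 16 (adjusted p = 0.0278), Ehd3, in 6 against 13 (adjusted p = 0.0486), and Plvap, in 0 against 5 (adjusted p = 0.0491). The calls of Pecam1 and Plvap were lost when every gene with a count was tested (both 0.0654) and when expected counts under 1 were counted too (both 0.0503), and Plvap was in too few libraries to be tested with thinning or with 5 counts required. The calls of Pdgfra and Ehd3 were lost with libraries thinned to 1 common total (0.142 for Pdgfra and 0.0706 for Ehd3) and with 5 counts required (0.186 and 0.0521), and that of Ehd3 also when every gene with a count was tested (0.0648). Of all genes, 1.16% were found more often and 28.3% less often in this pool, so a lower frequency was common there. Acta2 was found in 6 of 24 libraries, up to 256 CPM, and in none of the KP1 pool (adjusted p = 0.0736). edgeR called 2 of 3 members higher and none lower, against 8.94% and 2.65% of all genes, Vwf with a log2 fold change of 2.53 (edgeR adjusted p = 0.00264) and Des with 2.19 (edgeR adjusted p = 0.0268). Neither call held in the 7 pool libraries with at most 10% spike-in, at adjusted p of 0.357 for Vwf and 0.0968 for Des.

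Single captures were also set against the pool of the same liver. Between nude liver 10-cell and pool libraries, Ecm1 was the only one of 32 members tested that Fisher's exact test called, found in 25 of 33 against 8 of 35 libraries (adjusted p = 0.0201), where 0.94% of all genes were found more often and 0.0261% less often. edgeR called 0 of 5 members in nude liver, where 0.333% of all genes were higher and 0.921% lower in single captures, 1.25% in all. It called 0 of 5 in F1 liver, where 1.69% were higher and 5.53% lower, 7.22% in all, and 0 of 5 between the F1 and nude liver pools, where 8.2% were higher and 3.79% lower in the F1 pool, 12% in all. Fisher's exact test called 0 of 25 members in F1 liver and 0 of 24 between the pools. Of all genes, 0.557% were found more often and 0.0357% less often in F1 single captures, 0.593% in all, and 0.175% more often and 1.86% less often in the F1 pool, 2.03% in all. At an unadjusted p under 0.05, Fisher's exact test gave 3 members in each of these. edgeR gave 1 member in nude liver, 0 in F1 liver and 1 between the pools. DESeq2 called 3 members in each of the 3 comparisons in which edgeR called none, and of all genes it called 562 higher and 216 lower of 12245 in nude liver, 710 and 845 of 11798 in F1 liver, and 873 and 1033 of 11709 between the pools. Nude pool libraries never held 5 or more of the 17 members absent from KP1 spheroid 10-cell libraries, while 12 single captures did.

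Other genes of the same pathways came from lists that do not overlap the members. Of 26 further endothelial genes, edgeR tested 3 in nude and 2 in F1 liver 10-cell libraries against KP1 spheroids, and 2 and 1 of them were higher and none lower. Fisher's exact test called 6 more often and 1 less often of 19 tested in nude liver, and 1 more often and 2 less often of 14 in F1 liver. In the nude pool it called 2 more often and 2 less often of 16 tested, and in the F1 pool 1 more often and 3 less often of 9. Here and for the lists below, the shares of all genes found more and less often were 7.89% and 8.37% in nude liver. They were 1.39% and 4.55% in F1 liver, 4.92% and 24.6% in the nude pool, and 1.16% and 28.3% in the F1 pool. By edgeR, 17.7% and 7.73% of all genes were higher in nude and F1 liver. Fcgr2b, an Fc receptor of sinusoidal endothelium and immune cells, had a mean of 187 against 1.6 CPM (log2 fold change 7.03, edgeR adjusted p = 8.87e-09). Cd34, a sialomucin of vessels, had 49.3 against 3.86 CPM (log2 fold change 3.73, edgeR adjusted p = 2.34e-05). Cd93, a lectin-like endothelial receptor, was found in 32 of 33 nude liver and 9 of 28 KP1 spheroid libraries (adjusted p = 6.23e-06). From nude to F1 liver, Fcgr2b fell by 5.17 on the log2 scale (edgeR adjusted p = 7.59e-06). Decimals were present in 98% of the values of Fcgr2b, 97.9% of those of Cd34 and 89.6% of those of Cd93.

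Of 26 further stellate and fibroblast genes, edgeR tested 3 in each liver. Vim, an intermediate filament of mesenchymal cells, was higher in both livers, with log2 fold changes of 2.03 and 2.52 (edgeR adjusted p = 0.0385 and 0.0438). Fisher's exact test called 10 more often and 2 less often of 20 tested in nude liver, and 6 more often and 1 less often of 17 in F1 liver. In the nude pool it called 3 more often and 1 less often of 14 tested, and in the F1 pool 3 more often and 4 less often of 15. Found more often in nude liver were Pth1r, a stellate receptor for parathyroid hormone, in 22 against 1 library (adjusted p = 1.92e-05), Cygb, the stellate globin cytoglobin, in 30 against 8 (adjusted p = 5.2e-05), and Col1a2, a chain of type I collagen, in 19 against 1 (adjusted p = 0.000265). Cygb was found in 8 of 31 F1 liver libraries, fewer than the 30 of 33 in nude liver (adjusted p = 8.33e-05).

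Among 31 ligands and other receptors, of which edgeR tested 5 in nude and 4 in F1 liver, Nrp1, a VEGF co-receptor, was higher in nude liver with a mean of 62.7 against 3.16 CPM (log2 fold change 4.37, edgeR adjusted p = 2.51e-05). Fisher's exact test called 4 more often and 2 less often of 21 tested in nude liver, and none more often and 2 less often of 19 in F1 liver. In the nude pool it called 1 more often and 5 less often of 21 tested, and in the F1 pool none more often and 7 less often of 16. Of all genes, 24.6% and 28.3% were found less often in these pools. Pdgfa, a PDGF ligand, was found in 31 of 33 nude liver and 15 of 28 KP1 spheroid libraries (adjusted p = 0.00519), and Dll4, the Notch ligand of sprouting vessels, in fewer liver libraries, 13 of 33 nude and 9 of 31 F1 against 24 of 28 (adjusted p = 0.00448 and 0.00195).

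Hepatocyte, erythrocyte and macrophage markers also differed between livers and KP1 spheroids. A list of 16 hepatocyte markers summed to a median of 1.11 CPM in KP1 spheroid (0 to 99.2), 1024 CPM in nude liver (33.8 to 6199) and 190 CPM in F1 liver 10-cell libraries (0 to 2440). Of these, Fisher's exact test called 15 and 11 of 15 tested in each more often, where 7.89% and 1.39% of all genes were found more often. A list of 6 erythrocyte markers summed to medians of 0, 551 and 1622 CPM (highest 31.3, 3743 and 32920), with 4 and 5 of 5 tested found more often. The 13 Kupffer cell and macrophage markers summed to 13.6, 53.2 and 71.2 CPM (highest 138, 301 and 591), with 7 of 9 and 4 of 8 tested found more often. Of these markers, edgeR tested 1 in each liver and did not call it. The 10 T, B and NK cell markers summed to medians of 1.07, 2.11 and 1.37 CPM, with none called. Of 7 cholangiocyte markers, 1, Onecut1, was found more often in each liver, and none of 4 mesothelial markers had counts in enough libraries to be tested. The part of these cells in the levels of the 38 genes was not tested.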

How the data were processed

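The deposited table holds expected counts per gene and library, which the authors made with RSEM and Bowtie2, per the submitters' processing notes. Versions and the annotation release were not given in the sources used here. Builds named there are GRCh38.p12 and GRCm38, and 92.7% of 31414 gene coordinates matched GENCODE's GRCm38 annotation. Of the deposited values, 89.3% were whole within 0.005, and all were rounded for the tests.

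The 92 spike-in rows were left out of totals and tests. Mean levels were tested with edgeR 4.0.16 (TMM scaling, its filter on low counts, quasi-likelihood test) and presence with Fisher's exact test (scipy 1.17.1) of libraries with at least 1 count, on genes with counts in at least 5 libraries of the compared groups. Both were adjusted by the Benjamini-Hochberg method over all genes tested and called below 0.05. The statistics were tested on simulated data. Alternatives were RLE and TMMwsp scaling, no filter, DESeq2 1.42.0, thinning, a replicate block, subsets of libraries, 5 counts for presence and other minimum numbers of libraries. Leaving out libraries with over 10% spike-in, or single libraries, and counting values under 1 as presence were chosen after seeing the data.

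Named in full were members called in any comparison; of other lists, called genes reaching 10 CPM, up to 4 per list and comparison. The members and lists were chosen with earlier results of these data known. No pair of libraries in a group agreed within sampling noise, the lowest chi-square per degree of freedom being 29.1.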

Additional observations from a re-analysis of the deposited data

Results flagged for a closer look

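Calls between hosts were made for 3 members, by a test of F1 against nude liver 10-cell libraries, which share the KP1 spheroids as their reference. Sparc had a log2 fold change of 2.46, Pecam1 of -3.14, and Ecm1 a difference of -50 percentage points in libraries with counts. The Sparc difference was not called without F1 sample 30, without samples 29 to 33 or with the replicate number as a block, and that of Ecm1 was not called with 5 counts required (adjusted p = 0.0737). By presence, 1 of 33 members was called, where 3.64% of all genes were.

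Bulk spheroid libraries, which entered no comparison, held 5 members at 10 CPM or more and above every KP1 spheroid 10-cell and pool library, and others exceeded those libraries at lower levels. In bulk KP1, Ehd3 was at 30.5 CPM, Pdgfra at 314 CPM and Dcn at 14 CPM. Bmp2 was at 39.8 CPM in bulk KP3, and Vwf at 293 CPM in bulk KP5. Each bulk value is 1 library made with another protocol.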

How the results depend on the processing

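By mean level, in the order nude and F1 liver against KP1 spheroids, F1 against nude liver, RPC against KP1, nude and F1 pools against the KP1 pool, F1 against nude pool, and 10-cell against pool in nude and in F1 liver, 3, 1, 2, 2, 4, 2, 0, 0 and 0 members were called. Without the filter on low counts these became 29, 22, 16, 18, 21, 19, 15, 11 and 12, and with DESeq2 17, 7, 11, 4, 9, 8, 3, 3 and 3. Calls over all genes grew too: without the filter, from 21 higher and 58 lower of 6299 genes to 2201 and 2378 of 20641 between nude liver 10-cell and pool libraries. Thinning to 1 common total gave 0 for F1 liver, 1 for RPC, 2 for the nude pool, 1 for the F1 pool and 1 between the pools. TMMwsp scaling gave 1 for RPC and 1 between the pools. With KP1 spheroids of little spike-in, nude liver gave 5 and RPC 1; with those of more spike-in, nude liver gave 6 and F1 liver 2. F1 libraries with high Rpl19-ps11 gave 2 against spheroids and 1 against nude liver, and those with low Rpl19-ps11 gave 2 against spheroids. Without libraries over 10% spike-in, the F1 pool gave 0. Leaving out single libraries gave 1 to 2 for F1 against nude liver, with Sparc lost without F1 sample 30, and 1 to 2 for RPC, with Vwf lost without RPC sample 19.

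By presence, 13, 3, 1, 4, 4, 5, 0, 1 and 0 members were called in the same order. Requiring 5 counts gave 7 in nude liver, 2 in the F1 pool and 1 between the pools, and thinning gave 5 in F1 liver, 2 for F1 against nude liver and 2 in the F1 pool. In the F1 pool, testing every gene with a count gave 2 and counting values under 1 as presence gave 3; the second, chosen after seeing the data, also called Pecam1 in place of Rgs5 in F1 liver. The cause of these changes was not tested. Over single called members, 228 values kept their direction and call, 46 lost the call and 0 reversed.

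With the replicate number as a block, 1 member was called for F1 against nude liver, 1 for RPC and 1 for the F1 pool, without Sparc (adjusted p = 0.402), Vwf (0.153) and Des (0.34). The numbers do not pair libraries: the median correlation of same-numbered libraries was between -0.0039 and 0.0054, and at most 3 libraries in a comparison correlated best with their own number.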
